A study of Homo sapiens with 2 samples.

Results

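Respiratory complex I is the NADH dehydrogenase of the mitochondrial inner membrane, and its genes were compared between H9 cells treated with small interfering RNA against HNRNPA1 (siHNRNPA1) and H9 cells treated with a control small interfering RNA (sicontrol). H9 is an established human embryonic stem cell line, hnRNP A1 is a nuclear RNA-binding protein that acts in splicing, and the treatment lasted 48 h in both conditions. Complex I genes were taken as all genes whose name starts with NDUF or MT-ND. They were 55 of the 20263 genes of the deposited transcript table and held 248 of its 95139 transcripts. Of the 55 genes, 7 are mitochondrially encoded subunits, 37 are nuclear subunits, 8 are assembly factors (NDUFAF) and 3 carry an NDUF name without being counted among these. All but NDUFA4L2 had a mean FPKM of at least 1, the level from which folds were counted, so that 54 members were among the 11921 genes kept. The labels match 1 library of each condition to a column of the table, so no difference below has a replicate check and no significance test was applied. The labels give no clone or passage of the cells and no knockdown measurement apart from these data.

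Complex I takes electrons from NADH through a flavin and a chain of iron-sulfur clusters to ubiquinone in its matrix arm, and pumps protons through its membrane arm. Its core subunits, which carry out the chemistry and the pumping, are shared with bacteria. The membrane-embedded core is encoded by mitochondrial DNA, and the redox core by nuclear genes. The accessory subunits surround the core and are all nuclear. Assembly factors bind the intermediates and leave before the enzyme is complete. Pluripotent stem cells are known for high glycolytic flux, although their mitochondria respire.

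Sequences are given here for an overlap of reading frames whose genes differed unequally between the libraries and for an exon whose inclusion differed, from GENCODE release 29 (GRCh38), 5′ to 3′. MT-ND4L and MT-ND4 are neighbouring reading frames of 1 mitochondrial mRNA and share 7 bases, printed in capitals (MT, plus strand, 10727 to 10766 for the first and 10760 to 10799 for the second).
MT-ND4L end: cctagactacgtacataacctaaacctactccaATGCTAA
MT-ND4 start: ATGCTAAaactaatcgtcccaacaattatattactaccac
NDUFA12 has an internal coding exon of 88 bases (chromosome 12, 94994170 to 94994257, minus strand). It is printed in capitals between 30 coding bases on each side, and below it are the same flanks joined without it.
NDUFA12 with the exon: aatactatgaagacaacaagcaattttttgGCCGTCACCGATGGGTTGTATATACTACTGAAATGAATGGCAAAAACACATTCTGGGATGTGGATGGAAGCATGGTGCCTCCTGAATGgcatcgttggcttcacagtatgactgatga
NDUFA12 without the exon: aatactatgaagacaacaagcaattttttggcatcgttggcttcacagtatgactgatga

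Depth was similar, with 28147828 estimated counts for siHNRNPA1 cells and 26680342 for sicontrol cells. HNRNPA1 itself had 179.9 FPKM in siHNRNPA1 cells and 663 FPKM in sicontrol cells, that is 27.1% of the control level. All 10 listed embryonic stem cell markers were above the level from which genes were kept, and their summed level was 2438 FPKM in siHNRNPA1 cells and 2457 FPKM in sicontrol cells. Much of that was POU5F1, with 1355 FPKM in siHNRNPA1 cells and 863.6 FPKM in sicontrol cells. Of the 10 markers, 7 had a log2 fold below 0, and PODXL (-1.61), DPPA4 (-1.54) and SOX2 (-1.10) were at least 2-fold lower. The part of this difference in the results below was not tested. Of 8 fibroblast markers, 4 were kept, and their summed level was 217.6 FPKM in siHNRNPA1 cells and 264.1 FPKM in sicontrol cells, most of it THY1, which stem cells also express. COL1A1 had 25 FPKM in siHNRNPA1 cells and 14.5 FPKM in sicontrol cells, and COL1A2 had 8.38 FPKM in siHNRNPA1 cells and 13.3 FPKM in sicontrol cells. COL3A1, DCN and LUM were listed at 0 in both libraries. More genes were lower than higher in siHNRNPA1 cells. Of the genes kept, 1480 were at least 2-fold higher and 2609 at least 2-fold lower, or 1904 and 2193 after scaling by the median ratio of the libraries. Over all genes the median log2 fold was -0.13, against -0.28 from TPM. Median ratio scaling sets this median near 0 by construction. In bulk RNA, fewer cells of a type and less RNA per cell cannot be told apart.

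Nuclear and mitochondrially encoded subunits of complex I stood apart. Nuclear subunits were higher in siHNRNPA1 cells almost throughout, with a log2 fold above 0 for 36 of 37 genes and a median log2 fold of 0.90. Mitochondrially encoded subunits were split, with 2 genes above 0 and 5 below and a median of -0.06. A log2 fold here is log2((siHNRNPA1 + 1)/(sicontrol + 1)) of the FPKM summed over a gene's transcripts, so folds of weakly expressed genes are understated. Of the 37 nuclear subunits, 16 reached a 2-fold higher level (43.2%), and none reached a 2-fold lower one. Over all genes kept, 12.4% were at least 2-fold higher, 21.9% at least 2-fold lower and 34.3% either. A fold above 0 was found in 45.2% of them and one below 0 in 54.8%. The sign turned for some nuclear subunits with other settings, since 34 were above 0 from TPM, 31 from TPM without the mitochondrially encoded mRNAs and 32 from leading transcripts only (those with the highest mean FPKM). The summed level of the nuclear subunits was 3726 FPKM in siHNRNPA1 cells and 1904 FPKM in sicontrol cells, or 195.7% of the control. That of the 7 MT-ND genes was 31002 FPKM in siHNRNPA1 cells and 41590 FPKM in sicontrol cells, or 74.5% of the control. MT-ND FPKM thus summed to 8.32 times that of the nuclear subunits in siHNRNPA1 cells, and to 21.8 times in sicontrol cells. Summed TPM was 176.2% of the control for the nuclear subunits and 67.1% for the MT-ND genes. Of the TPM without mitochondrially encoded mRNAs, nuclear subunits made up 0.874% in siHNRNPA1 cells and 0.566% in sicontrol cells. The medians of the nuclear and the mitochondrially encoded subunits differed by 0.97 on the log2 scale. From TPM, 10 nuclear subunits were at least 2-fold higher (27%), beside 10.5% of all genes. With the 13 mitochondrially encoded mRNAs left out of the TPM total 7 were (18.9%), beside 7.78% of all genes.

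**Figure D1:**
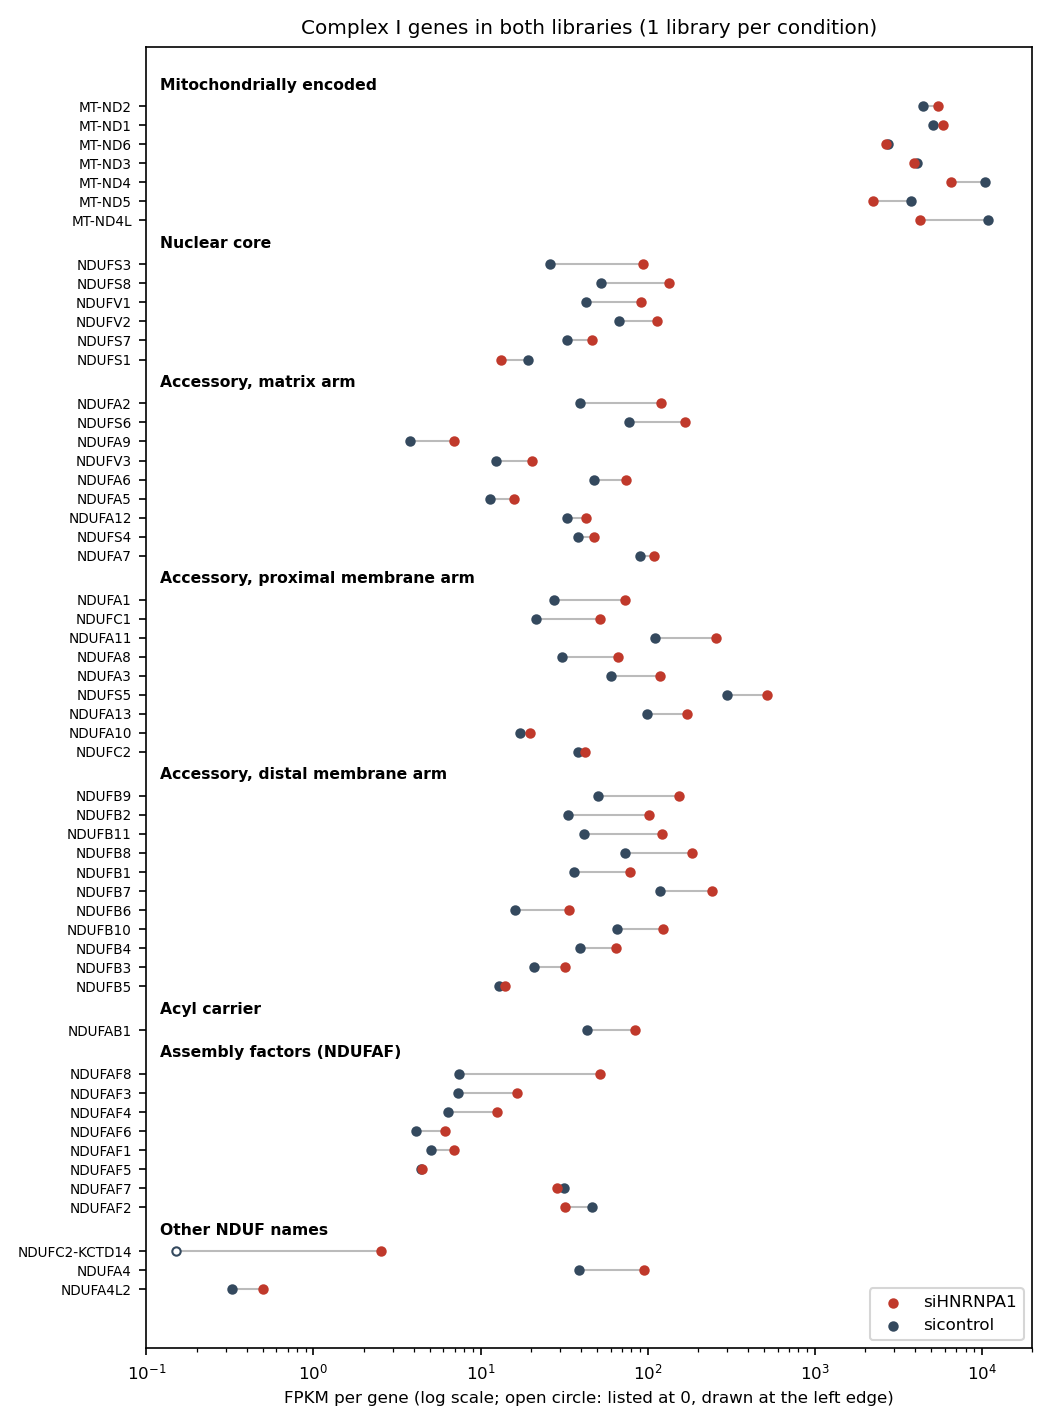
FPKM of 54 of the 55 complex I genes on a log axis, with 1 point per library (siHNRNPA1 red, sicontrol dark) and the genes grouped by role and ordered by fold. Among the nuclear subunits plotted, NDUFS1 alone has its siHNRNPA1 point to the left, and MT-ND4, MT-ND5 and MT-ND4L are the mitochondrially encoded genes with the widest gaps.

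The 7 mitochondrially encoded subunits form the proton-pumping membrane core. MT-ND1, which helps to shape the quinone channel, had 5846 FPKM in siHNRNPA1 cells and 5110 FPKM in sicontrol cells (log2 fold 0.19). MT-ND2, an antiporter-like pump subunit, had 5496 FPKM in siHNRNPA1 cells and 4435 FPKM in sicontrol cells (0.31). These were the 2 mitochondrially encoded mRNAs of the 13 that stood above 0. MT-ND3, which sits where the membrane and matrix arms meet, had 3913 FPKM in siHNRNPA1 cells and 4090 FPKM in sicontrol cells (-0.06). MT-ND6, encoded on the other strand, had 2688 FPKM in siHNRNPA1 cells and 2755 FPKM in sicontrol cells (-0.04). The strand setting of the counting is not given, so the MT-ND6 values may include reads from the opposite strand. The sign of MT-ND3 and MT-ND6 depended on the scaling, since median ratio scaling gave 0.09 for MT-ND3 and 0.12 for MT-ND6.

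The remaining mitochondrially encoded subunits were lower in siHNRNPA1 cells under every scaling tried. MT-ND4, an antiporter-like pump subunit, had 6582 FPKM in siHNRNPA1 cells and 10503 FPKM in sicontrol cells (-0.67). MT-ND5, the pump subunit at the far end of the membrane arm, had 2225 FPKM in siHNRNPA1 cells and 3784 FPKM in sicontrol cells (-0.77). MT-ND4L, a small subunit between the pumps, had 4253 FPKM in siHNRNPA1 cells (95% counting interval 4212 to 4293) and 10913 FPKM in sicontrol cells, a log2 fold of -1.36, and was the 1 member at least 2-fold lower. MT-ND4L and MT-ND4 lie on the same mRNA and share the bases printed above, yet they did not differ alike between the libraries. FPKM of MT-ND4L was 0.646 times that of MT-ND4 in siHNRNPA1 cells and 1.04 times in sicontrol cells. The ratio of their counts differed by -0.69 on the log2 scale (95% interval -0.70 to -0.67, by a normal approximation that covers counting error only). In MT-ATP8 and MT-ATP6 of the ATP synthase, which also overlap, the upstream and shorter frame again had the lower fold. In MT-ATP6 and MT-CO3, which meet at 1 base, the upstream and shorter frame had the higher one (-0.19 beside -0.43). FPKM of MT-ATP8 was 3.25 times that of MT-ATP6 in siHNRNPA1 cells and 4.40 times in sicontrol cells. How reads across the overlap were divided between the frames is not given in the sources used here, and its part in these ratios was not tested.

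Among the 6 other mitochondrially encoded mRNAs, those of the cytochrome oxidase, cytochrome b and ATP synthase subunits, all were below 0, from -0.79 for MT-CO1 to -0.19 for MT-ATP6. MT-CO2 stood at -0.43, MT-CO3 at -0.43, MT-ATP8 at -0.62 and MT-CYB at -0.25. Their median of -0.43 lay below the MT-ND median. MT-ND genes made up 32.9% of the TPM of the 13 mRNAs in siHNRNPA1 cells and 31.4% in sicontrol cells. The 13 mRNAs together made up 18.1% of TPM in siHNRNPA1 cells and 28.2% in sicontrol cells. Folds showed no steady course along the heavy strand. The first genes, MT-ND1 and MT-ND2, stood highest, MT-CO1 next to them was among the lowest, and MT-ND3 lay between lower genes. Mitochondrial genes have nuclear copies of near-identical sequence, and how reads shared with these were counted is not given in the sources used here.

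**Figure D2:**
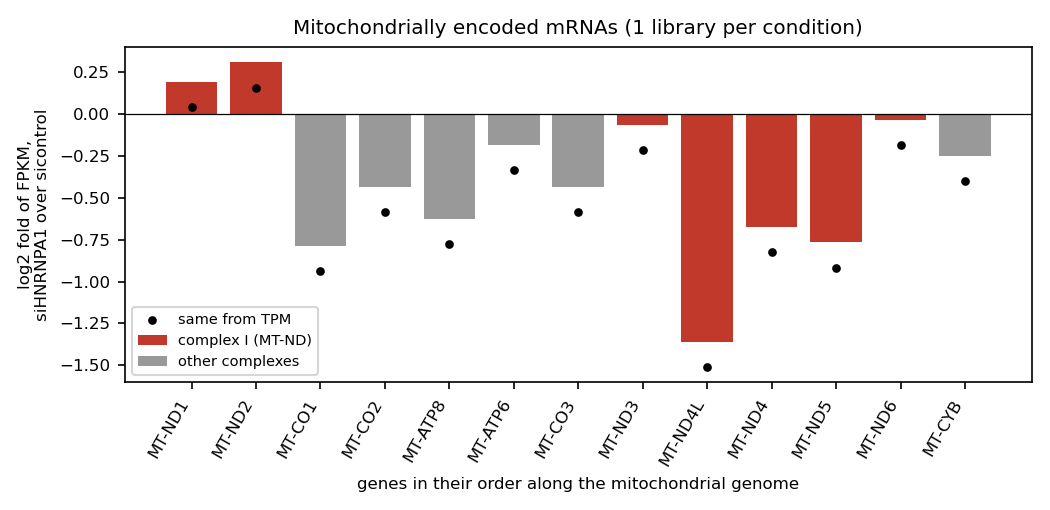
Log2 folds of the 13 mitochondrially encoded mRNAs in their order along the mitochondrial genome, as bars from FPKM (complex I red, other complexes grey) and as dots from TPM. MT-ND1 (0.19) and MT-ND2 (0.31) are above 0, and MT-ND4L (-1.36) is the lowest.

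The 7 nuclear core subunits carry the flavin and the iron-sulfur clusters. Of these subunits, 6 were higher in siHNRNPA1 cells, 3 at least 2-fold (42.9%, beside 12.4% of all genes). NDUFS3, a scaffold of the quinone module, had 94.5 FPKM in siHNRNPA1 cells (95% counting interval 91.2 to 98.0) and 26.1 FPKM in sicontrol cells (24.3 to 28.0), a log2 fold of 1.82 and the highest of all subunits. Its gene lies on chromosome 11, 47579010 to 47584562, plus strand (GRCh38). NDUFS8, which binds clusters on the way to the quinone, had 134.3 FPKM in siHNRNPA1 cells and 52.6 FPKM in sicontrol cells (1.34). NDUFV1, which binds NADH and the flavin, had 91.1 FPKM in siHNRNPA1 cells and 43.1 FPKM in sicontrol cells (1.06). These were the core genes past 2-fold. NDUFV2, its partner in the NADH module, had 113.7 FPKM in siHNRNPA1 cells and 67.5 FPKM in sicontrol cells (0.74). NDUFS7, the holder of the last cluster before the quinone, had 46.6 FPKM in siHNRNPA1 cells and 33.0 FPKM in sicontrol cells (0.49). Its counts differed more, with a log2 CPM ratio of 1.13 (CPM being a gene's count scaled to its library's total), and its transcript shares differed as given below. NDUFS1, the largest subunit and the holder of several clusters of the NADH module, was the 1 nuclear subunit below 0 from summed FPKM. It had 13.3 FPKM in siHNRNPA1 cells (12.7 to 13.9) and 19.3 FPKM in sicontrol cells (18.6 to 20.1), a log2 fold of -0.51. Its gene lies on chromosome 2, 206114817 to 206159603, minus strand. The redox core genes thus spanned 10.1-fold in FPKM in siHNRNPA1 cells and 3.49-fold in sicontrol cells, although each protein is present once in the complex.

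The 9 accessory subunits of the matrix arm were all above 0, with a median log2 fold of 0.63. At least 2-fold higher were 2 genes (22.2%, beside 12.4% of all genes). NDUFA7 (-0.07) and NDUFS4 (-0.02) turned below 0 from TPM without the mitochondrially encoded mRNAs, and NDUFA5 (-0.33) from its leading transcript. NDUFA2, a small subunit with a thioredoxin-like fold, had 120.6 FPKM in siHNRNPA1 cells and 39.3 FPKM in sicontrol cells (1.59). NDUFS6, a zinc-binding subunit of the NADH module, had 168 FPKM in siHNRNPA1 cells and 77.3 FPKM in sicontrol cells (1.11). NDUFA9, which resembles short-chain dehydrogenases and lies near the quinone site, had 6.96 FPKM in siHNRNPA1 cells and 3.76 FPKM in sicontrol cells (0.74), the lowest FPKM of any nuclear subunit in both libraries. At the other end of this group was NDUFA7, with 108.7 FPKM in siHNRNPA1 cells and 89.9 FPKM in sicontrol cells (0.27). NDUFS4, a subunit whose loss causes Leigh syndrome, had 47.6 FPKM in siHNRNPA1 cells and 38.1 FPKM in sicontrol cells (0.31). NDUFA12, which takes the place of the assembly factor NDUFAF2 late in assembly, had 42.9 FPKM in siHNRNPA1 cells and 32.9 FPKM in sicontrol cells (0.37). The other 3 matrix-arm genes, NDUFA5, NDUFA6 and NDUFV3, lay from 0.44 to 0.68. NDUFA7 and NDUFA9 overlap other annotated genes on their own strand, as do NDUFA11, NDUFA13, NDUFB2, NDUFB8, NDUFC1 and NDUFC2 of the membrane arm, and 13 nuclear subunits overlap genes on the other strand, among them NDUFA2, NDUFS1, NDUFS3, NDUFB9 and NDUFB11. How their shared reads were assigned is unknown, and these values are uncertain to that extent.

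Accessory subunits of the membrane arm were above 0 from FPKM in all 20 cases. From TPM, NDUFB5 (-0.03) and NDUFC2 (-0.02) turned below 0. NDUFA10 (-0.13) did so from TPM without the mitochondrially encoded mRNAs, and NDUFA3 (-0.79) and NDUFB5 (-0.19) from their leading transcripts. In its proximal part, around MT-ND1 and MT-ND2, the median log2 fold was 0.96. There 4 of 9 genes were at least 2-fold higher (44.4%, beside 12.4% of all genes). NDUFA1, an X-linked subunit with a single membrane helix, had 73.2 FPKM in siHNRNPA1 cells and 27.5 FPKM in sicontrol cells (1.38). NDUFC1 had 52.2 FPKM in siHNRNPA1 cells and 21.4 FPKM in sicontrol cells (1.25), and overlaps MGARP on the same strand. NDUFA11, at the contact with complex III in supercomplexes, had 256.1 FPKM in siHNRNPA1 cells and 111.1 FPKM in sicontrol cells (1.20). These were the highest folds of the proximal part. Its lowest were those of NDUFC2, with 42.3 FPKM in siHNRNPA1 cells and 38.5 FPKM in sicontrol cells (0.13), and NDUFA10, a relative of nucleoside kinases, with 19.9 FPKM in siHNRNPA1 cells and 17.2 FPKM in sicontrol cells (0.20). The counts of NDUFC2 differed more, with a log2 CPM ratio of 0.74. NDUFA13, also known as GRIM-19, had 172.1 FPKM in siHNRNPA1 cells and 99.7 FPKM in sicontrol cells (0.78). NDUFS5, a disulfide-bonded subunit on the intermembrane side, was the most abundant nuclear subunit in both libraries, with 519 FPKM in siHNRNPA1 cells and 297.5 FPKM in sicontrol cells (0.80).

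In the distal part of the membrane arm, around MT-ND4 and MT-ND5, the median log2 fold was 1.03. A 2-fold higher level was reached by 7 of 11 genes (63.6%, beside 12.4% of all genes). NDUFB9, which binds the acyl carrier subunit, had 155.1 FPKM in siHNRNPA1 cells and 50.5 FPKM in sicontrol cells (1.60). NDUFB2 had 102.2 FPKM in siHNRNPA1 cells and 33.4 FPKM in sicontrol cells (1.59), and the X-linked NDUFB11 had 121.4 FPKM in siHNRNPA1 cells and 41.5 FPKM in sicontrol cells (1.53). NDUFB8, NDUFB1, NDUFB7 and NDUFB6 were also past 2-fold, between 1.03 and 1.33. The smallest fold was that of NDUFB5, with 14.1 FPKM in siHNRNPA1 cells and 13 FPKM in sicontrol cells (0.11). NDUFB3 had 32.2 FPKM in siHNRNPA1 cells and 20.9 FPKM in sicontrol cells (0.60), and NDUFB4 had 64.6 FPKM in siHNRNPA1 cells and 39.5 FPKM in sicontrol cells (0.70). In this part the nuclear accessory genes and the mitochondrially encoded core genes they surround stood on opposite sides, with every accessory gene above 0 and MT-ND4 and MT-ND5 below, except that NDUFB5 was below 0 in the settings just given. NDUFAB1, the mitochondrial acyl carrier protein, which binds in both arms, had 83.6 FPKM in siHNRNPA1 cells and 43.4 FPKM in sicontrol cells (0.93).

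**Figure D3:**
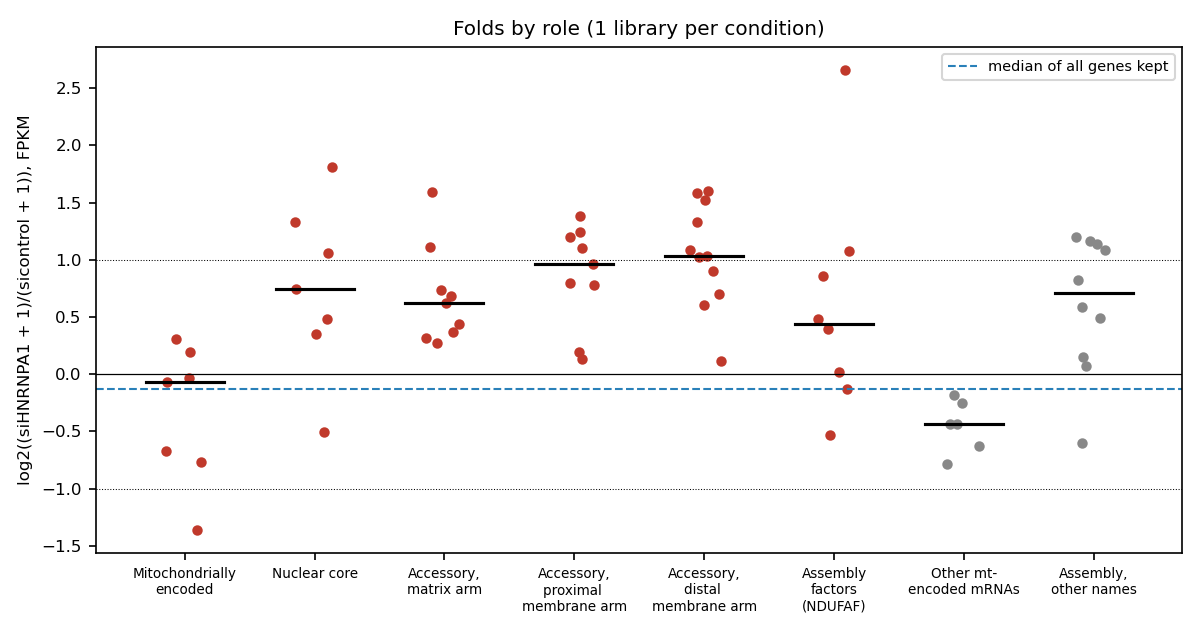
Log2 folds of FPKM by role, with 1 point per gene, a black bar at each group's median, a dashed line at the median of all genes kept (-0.13) and dotted lines at 2-fold. The nuclear groups have medians from 0.63 to 1.03, the NDUFAF genes 0.44, and the mitochondrially encoded complex I genes -0.06.

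Assembly factors had folds from -0.53 to 2.66, and nuclear subunits from -0.51 to 1.82. Of the 8 NDUFAF genes, 6 were above 0 and 2 at least 2-fold higher (background 12.4%, as above), with a median log2 fold of 0.44 beside 0.90 for nuclear subunits. NDUFAF8, which stabilises NDUFAF5, had 52.1 FPKM in siHNRNPA1 cells (49.1 to 55.4) and 7.41 FPKM in sicontrol cells (6.23 to 8.74), a log2 fold of 2.66 and the highest of all 54 members kept. Its gene lies on chromosome 17, 81239239 to 81241281, plus strand. NDUFAF5, the enzyme that hydroxylates NDUFS7, had 4.45 FPKM in siHNRNPA1 cells and 4.37 FPKM in sicontrol cells (0.02). The counts of NDUFAF5 differed more, with a log2 CPM ratio of 0.66, while its leading transcript alone gave -0.79, so that its direction depended on the setting. NDUFAF3 and NDUFAF4 act together on the early quinone module. NDUFAF3 had 16.5 FPKM in siHNRNPA1 cells and 7.31 FPKM in sicontrol cells (1.07), and NDUFAF4 had 12.5 FPKM in siHNRNPA1 cells and 6.42 FPKM in sicontrol cells (0.86). NDUFAF6, needed for the MT-ND1 module, had 6.16 FPKM in siHNRNPA1 cells and 4.13 FPKM in sicontrol cells (0.48). NDUFAF1, which builds the membrane arm together with ACAD9 and ECSIT, had 6.97 FPKM in siHNRNPA1 cells and 5.07 FPKM in sicontrol cells (0.39). Below 0 were NDUFAF7, a methyltransferase, and NDUFAF2. NDUFAF7 had 28.7 FPKM in siHNRNPA1 cells and 31.5 FPKM in sicontrol cells (-0.13). NDUFAF2, the relative that NDUFA12 replaces, had 31.9 FPKM in siHNRNPA1 cells and 46.5 FPKM in sicontrol cells (-0.53). It was the more abundant of this pair in sicontrol cells and the less abundant in siHNRNPA1 cells. When each gene was set against 100 genes of like level, GC content and length, the order of medians turned, at 0.28 for nuclear subunits and 0.40 for NDUFAF genes.

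Outside these groups, NDUFA4, now counted as a subunit of cytochrome oxidase, had 94.7 FPKM in siHNRNPA1 cells and 38.9 FPKM in sicontrol cells (1.26). Its hypoxia-induced relative NDUFA4L2 had 0.496 FPKM in siHNRNPA1 cells and 0.325 FPKM in sicontrol cells, from 22 and 12 estimated counts, and was not kept. The readthrough gene NDUFC2-KCTD14 had 48 estimated counts in siHNRNPA1 cells and was listed at 0 in sicontrol cells. Its reads are shared with NDUFC2, so no fold is given. Of 12 listed assembly factors with other names, 10 were found in the table, with a median log2 fold of 0.71. Of these, 9 were above 0, beside 45.2% of all genes, and 4 at least 2-fold higher (40%), beside 12.4% of all genes. ECSIT had 51.1 FPKM in siHNRNPA1 cells and 21.7 FPKM in sicontrol cells (1.20), FOXRED1 stood at 1.17 and TMEM126A at 1.14. NUBPL, which delivers iron-sulfur clusters to the complex, was the 1 below 0 (-0.60). Against their nearest genes ECSIT stood at 0.25, FOXRED1 at 0.51, TMEM126A at 1.09 and NUBPL at -0.10.

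From FPKM, genes that maintain and express mitochondrial DNA were on both sides of 0. Of 26 such genes in the table, 13 were above 0 and 13 below, with 4 at least 2-fold higher, 3 at least 2-fold lower and a median log2 fold of -0.06. Over all genes kept, 12.4% were at least 2-fold higher, 21.9% at least 2-fold lower and 45.2% above 0, as given above. HSD17B10, a subunit of mitochondrial RNase P, had 150.8 FPKM in siHNRNPA1 cells and 51.3 FPKM in sicontrol cells (1.54). LRPPRC, which stabilises mitochondrial mRNAs together with SLIRP, had 16.9 FPKM in siHNRNPA1 cells and 42.8 FPKM in sicontrol cells (-1.29). SLIRP itself stood at 1.15 and was named after its value had been seen, and FASTK at 1.19. Against their 100 nearest genes, LRPPRC stood at -0.13, HSD17B10 at 0.75, SLIRP at 0.45 and FASTK at 0.44. All 26 genes taken this way had a median of 0.43, with 19 above 0 and 7 below, where 50.1% of all genes were above 0. Of the 26, 3 were then at least 2-fold higher (11.5%, beside 8.11% of all genes). At least 2-fold lower was 1, beside 8.35% of all genes. Of the listed regulators of mitochondrial biogenesis, 7 were kept. Of these, 5 were below 0, as were 54.8% of all genes, and 3 at least 2-fold lower, as were 21.9% of all genes. GABPA, the DNA-binding part of NRF-2, had 1.65 FPKM in siHNRNPA1 cells and 6.47 FPKM in sicontrol cells (-1.50), PPARGC1B stood at -1.10 and YY1 at -1.03. Against their nearest genes these stood at -0.21, -0.96 and -0.19.

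Folds in these libraries went with the GC content and the length of a gene's leading transcript, which is the one with the highest mean FPKM. Across all genes kept with a GENCODE sequence, Spearman's rho of the fold was 0.58 with GC content and -0.46 with length (11916 genes of the same libraries, not independent replicates). Nuclear subunit transcripts were short, with a median of 844 nucleotides beside 2790 for all genes, while their median GC content of 52.4% was near the 50.6% of all genes. Within the 37 nuclear subunits rho was 0.50 with GC content and -0.34 with length. Nuclear subunits of every composition had higher medians than other genes of that composition. Under 45% GC, the 7 subunits had a median of 0.60 with none below 0, and all 3774 such genes a median of -0.86. From 45 to 55% GC, the 19 subunits had a median of 0.93, and the 3826 genes one of -0.20. At 55% and over, the 11 subunits had a median of 1.03, and the 4316 genes one of 0.50. Each fold was also taken relative to the median of 100 like genes, the nearest ones by level, GC content and length. Of the 37 nuclear subunits, 28 were then above 0, with a median of 0.28, where 50.1% of all genes were above 0 and 49.9% below. Only 4 were then at least 2-fold higher (10.8%), where 8.11% of all genes were. No nuclear subunit was then at least 2-fold lower, where 8.35% of all genes were (16.5% either way). Those past 2-fold were NDUFA9 (1.96), NDUFB6 (1.22), NDUFA5 (1.12) and NDUFS3 (1.04). The measure is void for MT-ND genes, since too few genes reach their level, and it is not given gene by gene for them. Among the NDUFAF genes, NDUFAF8 (1.63) stayed past 2-fold after the subtraction. NDUFAF4 rose past it (1.89, from 0.86), and NDUFAF3 fell below it (0.30, from 1.07).

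**Figure D4:**
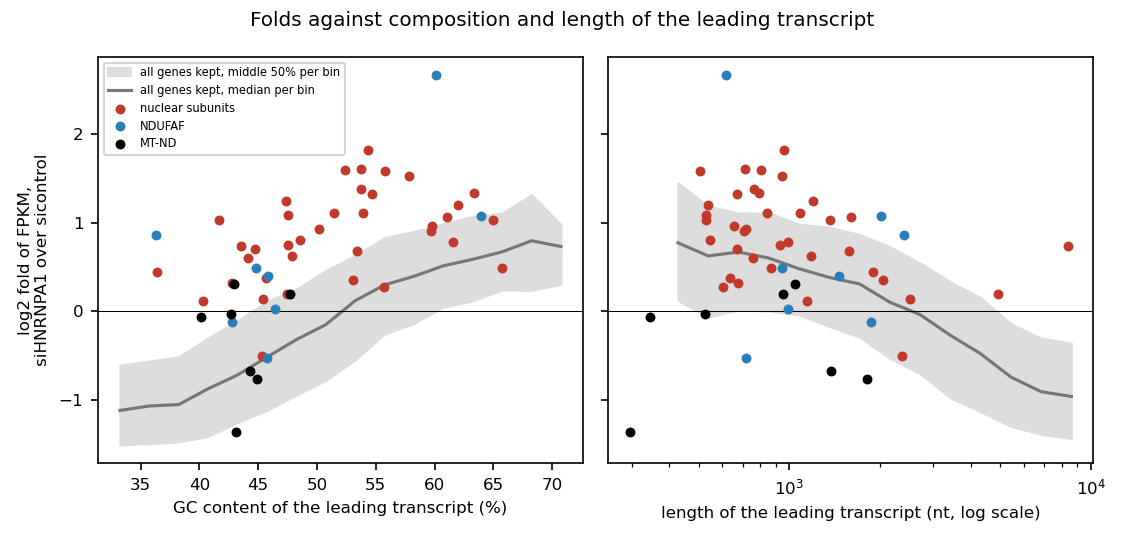
Log2 fold against GC content (left) and length on a log axis (right) of the leading transcript, with nuclear subunits red, NDUFAF genes blue and MT-ND genes black, and all genes kept as a grey line (median per bin) and band (middle 50 percent per bin). Of the 7 nuclear subunits under 45% GC, all lie above 0, where the median of all genes is -0.86.

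Transcripts of complex I genes differed in their shares between the libraries about as often as those of other genes. A share is a transcript's percentage of its gene's FPKM. Among the 39 members that had several transcripts and reached 5 FPKM in each library, 15 had a transcript whose share differed by at least 20 percentage points (38.5%), where 40.6% of all genes did. In NDUFA12 the transcript with the exon printed above held 91.4% in siHNRNPA1 cells and 52.9% in sicontrol cells. The transcript without it held 6.97% in siHNRNPA1 cells and 41.8% in sicontrol cells, from 49 and 207 estimated counts. It has an annotated reading frame of 189 bases, against 435 with the exon. The FPKM of the exon-containing transcript alone was thus 39.2 in siHNRNPA1 cells and 17.4 in sicontrol cells, a wider gap than that of the gene.

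In NDUFS1 a transcript with a reading frame of 2181 bases was listed at 0 in siHNRNPA1 cells and held 68.6% in sicontrol cells. Another, with a reading frame of 1848 bases, held 71.9% in siHNRNPA1 cells and 9.49% in sicontrol cells. An exact 0 for a transcript of an expressed gene can be a failed estimate. In NDUFA7 a transcript annotated as a target of nonsense-mediated decay held 25.9% in siHNRNPA1 cells and 63.2% in sicontrol cells. NDUFA3 had such a transcript too, with 12.6% in siHNRNPA1 cells and 44.1% in sicontrol cells. NDUFS7 had another, with 28.5% in siHNRNPA1 cells and 40.5% in sicontrol cells. Other transcripts with this annotation had the higher share in siHNRNPA1 cells. Among them was that of NDUFAF7, with 19.96% in siHNRNPA1 cells and 2.25% in sicontrol cells. In NDUFS4 it was 13.2% in siHNRNPA1 cells and 2.84% in sicontrol cells, and in NDUFB4 17.2% and 9.02%. Transcripts with this annotation thus went both ways. NDUFC2 had a short transcript with 4.45% in siHNRNPA1 cells and 51.2% in sicontrol cells, beside its main one with 87.4% in siHNRNPA1 cells and 48.8% in sicontrol cells. In NDUFS7 the longest of the listed transcripts held 38.6% in siHNRNPA1 cells and 7.45% in sicontrol cells. The transcripts named here were chosen after their values had been seen. These shares rest on the authors' division of reads between overlapping transcripts, whose error is unknown.

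**Figure D5:**
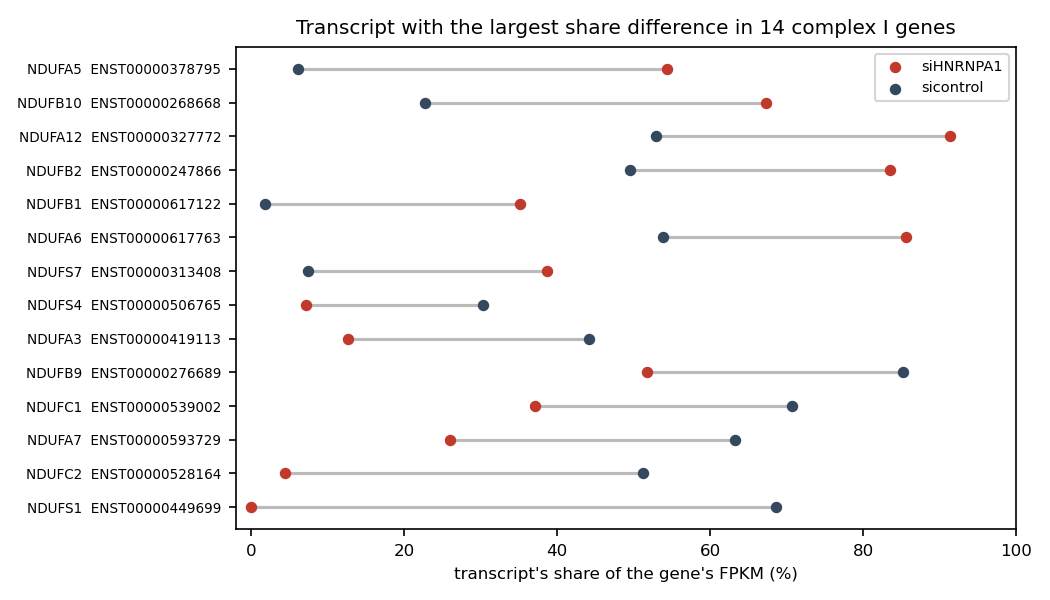
Share of the gene's FPKM held by the transcript with the largest share difference, for 14 of the 15 complex I genes past 20 percentage points, with siHNRNPA1 red and sicontrol dark. The share was higher in siHNRNPA1 cells for the upper 7 transcripts, and the widest gap is that of NDUFS1, listed at 0 in siHNRNPA1 cells and at 68.6% in sicontrol cells.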

How the data were processed

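RNA of H9 cells was sequenced from messenger RNA libraries made for Illumina, per the labels' protocols. The deposited table lists for every transcript and library an estimated count, TPM and FPKM, as computed by the authors per the file headers. The deposited counts are whole numbers. Of those from 1 to 3, 99.5% in each library lay within 1 above the value implied by FPKM and length (tolerance 0.05), so they were read as estimated counts rounded up. The aligner, the counting program, its strand setting and its annotation were not given in the sources used here. GRCm38 and mm10 are named in the submitters' processing notes, but the table holds human identifiers, and 246 of the 248 transcripts of members have the same position in GENCODE release 29 (GRCh38), whose positions are used. Another 6 columns with values of samples matched no label and were not used.

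Values were summed per gene with Python 3.11.15, pandas 2.3.3 and scipy 1.17.1. A pseudocount of 1 FPKM was added before log2, and genes were kept from a mean of 1 FPKM upward. With 1 library per condition no test was made. Counting intervals are exact Poisson intervals (95%) that treat an estimated count as independent reads, without the spread between samples. The neighbour subtraction was tested on simulated data in which folds went with GC content but not with length. That simulation therefore did not test the subtraction for length. Named were all mitochondrially encoded and NDUFAF genes, the core genes except 1 that is not reported here by name but stays in the counts and medians, the 3 highest and 3 lowest folds of each accessory group, and the 3 largest absolute folds of each further list, with some additions said in place. The sites whose sequence is printed, NDUFS5, NUBPL and the transcripts named were chosen after their values had been seen. Members and lists were chosen with earlier results of these data known. Alternatives were other pseudocounts, scalings, CPM, leading transcripts, no filter, neighbour subtraction and leaving out overlapping genes.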

Additional observations from a re-analysis of the deposited data

How the results depend on the processing

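No paired analysis was possible because each condition has 1 library. The difference between the medians of nuclear and mitochondrially encoded subunits stayed between 0.93 and 1.04 under 8 alternatives. Of these, TPM and median ratio scaling shift both medians nearly alike, and leaving out the filter changes no subunit. Such settings could hardly move the difference. Subtraction of the 100 nearest genes gave 1.05, but is void for MT-ND genes, whose level too few genes reach. The nuclear median was 0.76 from TPM, 0.57 from TPM without the mitochondrially encoded mRNAs, 1.06 after median ratio scaling and 0.28 after subtraction of the 100 nearest genes. The MT-ND median was -0.21 from TPM, -0.042 from CPM, -0.76 after that void subtraction and -0.0355 without genes overlapping on the same strand. It turned to 0.0944 after median ratio scaling, which moved all MT-ND log2 folds upward by the same amount. The NDUFAF median was 0.17 from TPM without the mitochondrially encoded mRNAs and 0.70 from leading transcripts only. The difference of nuclear subunits and NDUFAF genes was 0.19 from leading transcripts only and turned to -0.12 after the subtraction; the cause was not tested. Nuclear subunits at least 2-fold higher numbered 10 from TPM, 7 from TPM without the mitochondrially encoded mRNAs and 4 after the subtraction, and 1, NDUFS1, was at least 2-fold lower from leading transcripts only. Of 522 single-gene folds under alternatives, 237 moved by more than the half-width of their counting interval, and no fold past 2-fold changed sign. Depth limits NDUFA4L2 and NDUFC2-KCTD14 most, with 48 or fewer estimated counts. With 1 library per condition the spread between samples is unknown for every value.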
